A study of Drosophila melanogaster with 6 samples.

Results

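The circadian clock of Drosophila melanogaster was followed here through 9 genes, per, tim, Clk, cyc, vri, Pdp1, cwo, cry and to, in RNA-seq libraries of whole larvae. They were taken from the count table by their FlyBase symbols, and all 9 were found among its 17562 rows. Positions are 1-based and in BDGP6.54. The larvae were at the wandering stage, when larvae of the last instar leave the food before pupariation. The control was w1118, a white-eyed laboratory strain, and the mutant was homozygous for cdk8K185, a loss-of-function allele of Cdk8 that also removes part of the neighbouring gene I-2. Each genotype gave 3 libraries of 10 pooled larvae, and the sex of the animals is not given in the sources used here. As the paper describes the strains, the mutant chromosome carries FRT80B, the strain was outcrossed to w1118 and kept over the balancer TM6B with the larval marker Tb, and CDK8 supplied by the mother lets homozygotes live to the pupal stage. The paper names another deposit for its own RNA-seq, so whether these larvae came from the same generation of the strains is not known. The hour of collection and the light regime are not given in the sources used here.

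The fly clock is a feedback loop of transcription. CLK and CYC, a heterodimer of bHLH-PAS proteins, switch on per, tim, vri, Pdp1 and cwo. PER and TIM accumulate, enter the nucleus and shut CLK and CYC off, while VRI represses and PDP1 activates Clk in an interlocked loop. CWO is a repressor that acts on the same promoters, CRY is the blue light receptor that leads to the loss of TIM, and takeout (to) is an output gene that also responds to feeding. In adult heads, per, tim, vri, Pdp1, cwo and to transcripts peak in the evening or the night and Clk and cry transcripts around dawn, whereas cyc is steady through the day. In larvae the clock runs in a few lateral neurons of the brain and in peripheral tissues such as the prothoracic gland and the Malpighian tubules, and vri, Pdp1 and cwo are also expressed in cells with no known clock.

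Of the 9 genes, 4 rose in cdk8K185 and 0 fell (edgeR quasi-likelihood test, adjusted p under 0.05), which is 44.4% of them. The background is high, since 36.9% of the 10632 genes tested were called in this comparison, 19.9% as higher and 17.0% as lower. The balance of directions depended on the scaling, with 3452 higher and 1203 lower calls when library totals were used and 1800 higher and 2140 lower with DESeq2. The genes that rose were tim, Pdp1, per and cwo, by 5.15-, 3.62-, 2.03- and 1.3-fold in mean level. The other 5 genes, Clk, cyc, vri, cry and to, were not past the threshold. For 6 of the 9 genes every mutant library lay on the same side of every control library, which held for 53.6% of all genes tested. The median log2 fold change of cdk8K185 over w1118 was 0.37 over the 9 genes and 0.02 over all genes tested. All 9 passed the filter on low counts, but tim and to passed it through the cdk8K185 libraries alone and Clk through the w1118 libraries alone. In whole animals, fewer cells of a type and less RNA per cell cannot be told apart.

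**Figure D1:**
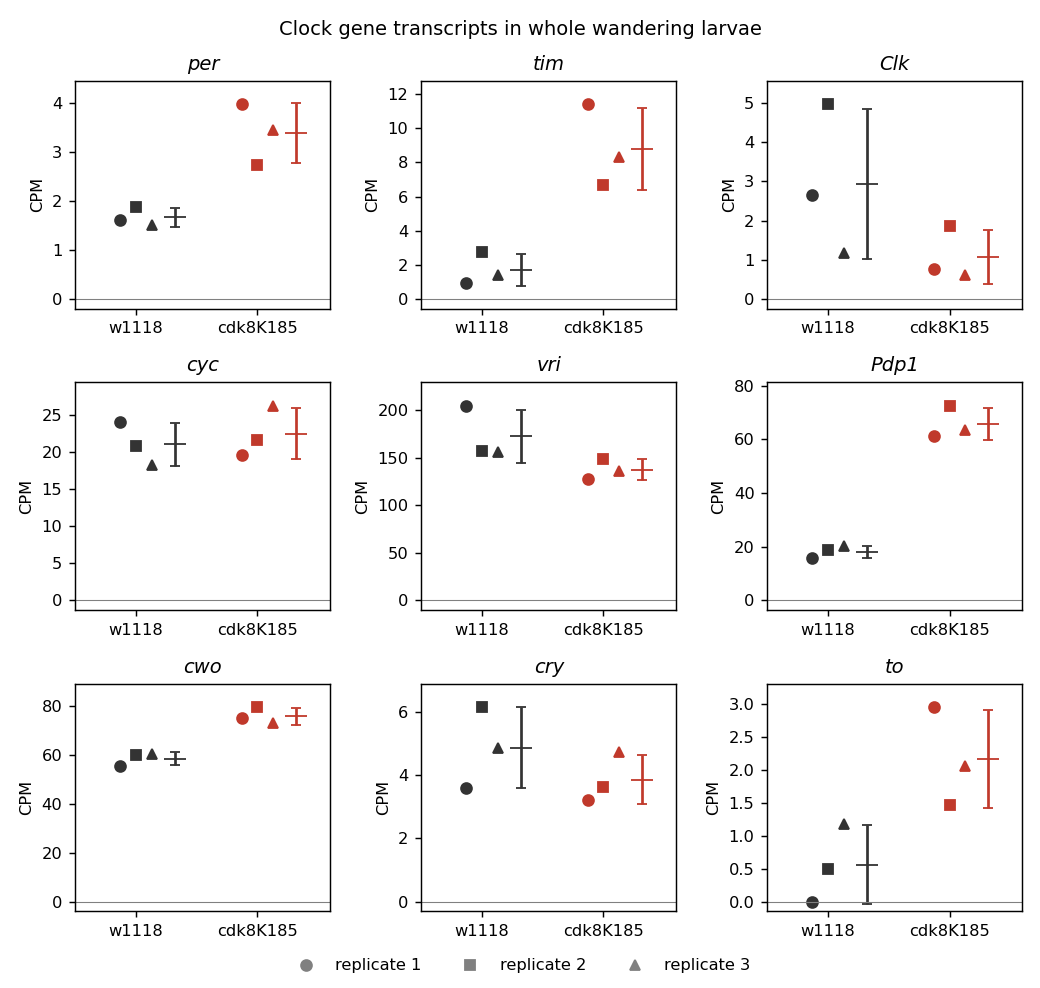
Level of the clock genes in CPM (read counts relative to the TMM-scaled library size) in each library, with 1 panel for each gene and its own linear axis. Symbols are single libraries, grey-black for w1118 and red for cdk8K185, and bars are the mean ± SD (n = 3). For tim, all cdk8K185 libraries lie at 6.66 CPM or more and all w1118 libraries at 2.78 CPM or less, while for Clk, cyc and cry the genotypes overlap.

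The clock genes differed widely in level, which was compared between genes as CPM (read counts relative to the scaled library size) per kb of exon. In w1118, vri was the highest with 36.5 ± 5.87 CPM per kb (SD, n = 3). It was followed by cyc at 13 ± 1.79 and cwo at 11.5 ± 0.522 CPM per kb, whose libraries overlapped. cry came next at 2.57 ± 0.675 CPM per kb, and Pdp1 at 1.5 ± 0.187 CPM per kb. The lowest were Clk at 0.649 ± 0.422, to at 0.447 ± 0.475, per at 0.368 ± 0.0433 and tim at 0.243 ± 0.136 CPM per kb, and neighbours among these 4 overlapped. In cdk8K185 the levels of Pdp1 (5.42 ± 0.499 CPM per kb) and tim (1.25 ± 0.342 CPM per kb) stood higher in the order, and Clk was the lowest of all at 0.238 ± 0.152 CPM per kb (SD, n = 3). The core loop genes per, tim and Clk were thus measured from few reads. Their counts ran from 7 to 135 per library, and the floor of 3 counts was worth 0.256 to 0.326 CPM of the unscaled library.

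The negative limb of the loop is formed by PER and TIM. tim (FBgn0014396, 2L:3493986-3508119, minus strand) had 0.945, 2.78 and 1.4 CPM in the controls, while the mutant libraries had 11.4, 6.66 and 8.34 CPM. Every mutant library was above every control library, and the nearest values were 28 counts in w1118 replicate 2 (95% Poisson interval 18.6 to 40.5) and 68 counts in cdk8K185 replicate 2 (52.8 to 86.2), intervals which cover counting error only. On the log2 scale tim rose by 2.36 ± 0.40 (SE; edgeR adjusted p 0.00434). A difference of this size or larger was seen for 7.19% of all genes tested. per (FBgn0003068, X:2685580-2692780, plus strand) was at 1.61, 1.89 and 1.51 CPM in the control libraries, and the mutant libraries held 3.97, 2.74 and 3.44 CPM. Its genotypes did not overlap either, with a log2 fold change of 1.02 and an SE of 0.29 (edgeR adjusted p 0.0324). The per call was weak. DESeq2 gave an adjusted p of 0.0592. When single libraries were left out, edgeR made the call in 1 of 6 cases, without cdk8K185 replicate 2 (adjusted p 0.0451), and the highest adjusted p was 0.124. Some exons of these genes overlap others in the annotation, since 49 bp of per are shared with dyw on the opposite strand and 545 bp of tim with lncRNA:CR46495. dyw had 1 to 8 counts per library, and lncRNA:CR46495 has no row in the count table, so its level is not known. On its own strand tim shares 151 bp with snoRNA:Or-CD16, which had 0 counts in every library.

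CLK and CYC form the positive limb. Clk (FBgn0023076, 3L:7763233-7775603, minus strand) had 2.65, 4.96 and 1.18 CPM in the controls, while the mutant libraries had 0.76, 1.86 and 0.602 CPM. The control libraries ranged from 11 to 50 counts, and w1118 replicate 3 fell below cdk8K185 replicate 2. The mean was 2.93 ± 1.9 CPM in the controls and 1.07 ± 0.685 CPM in the mutant (SD, n = 3), with a log2 fold change of -1.46, a 95% interval from -2.96 to 0.05 and an edgeR adjusted p of 0.111. The w1118 pools differed by more than counting error, with 11 counts (95% Poisson interval 5.49 to 19.7) in replicate 3 and 50 counts (37.1 to 65.9) in replicate 2. With the replicate number as a block the edgeR adjusted p was 0.0182 (log2 fold change -1.43), although whether the numbers pair the pools is not known. CG32371 (3L:7767269-7768352) lies within the Clk gene on the same strand and shares no exon with it. It was at 6.24, 8.93 and 2.37 CPM in the control libraries, and the mutant libraries held 1.1, 1.27 and 0.086 CPM, and it fell by 2.84 on the log2 scale (SE 0.79, edgeR adjusted p 0.0302). Like Clk, it passed the filter on low counts through the w1118 libraries alone. Both genes were highest in w1118 replicate 2 and cdk8K185 replicate 2 within their genotypes, and lowest in replicate 3 of each. cyc (FBgn0023094, 3L:19813770-19815938, minus strand), the partner of Clk, had 24.1, 20.8 and 18.3 CPM in the controls, while the mutant libraries had 19.7, 21.6 and 26.3 CPM. These values overlapped throughout, and the log2 fold change of 0.10 had a 95% interval from -0.26 to 0.45 (edgeR adjusted p 0.644).

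In the interlocked loop, Pdp1 rose and vri was not past the threshold. Pdp1 (FBgn0016694, 3L:7811458-7867369, minus strand), the bZIP activator of Clk, was at 15.7, 18.7 and 20.1 CPM in the control libraries, and the mutant libraries held 61.2, 72.6 and 63.4 CPM. The genotypes were far apart, and the libraries of a genotype were close together. The log2 fold change of 1.86 had an SE of 0.12 (edgeR adjusted p 0.000101), and it was called in all 6 fits that left out a library, with values from 1.76 to 1.95. vri (FBgn0016076, 2L:5288944-5311223, plus strand), the bZIP repressor that competes with PDP1, had 205, 157 and 156 CPM in the controls, while the mutant libraries had 128, 149 and 136 CPM. All mutant libraries were below the control libraries, but the difference did not pass the threshold (edgeR adjusted p 0.0925, log2 fold change -0.33 with SE 0.13). The vri value turned on the method, since DESeq2 called it (log2 fold change -0.37, adjusted p 0.0478), and with library totals as scaling it was -0.11 (edgeR adjusted p 0.587). Both genes have several transcripts, only some of which belong to the clock, and the table does not separate them.

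cwo (FBgn0259938, 3R:10388258-10400752, plus strand), the Orange-domain repressor of CLK targets, was at 55.5, 59.8 and 60.3 CPM in the control libraries, and the mutant libraries held 75.1, 79.7 and 72.9 CPM. The genotypes were apart in every library, and the rise was small, with a log2 fold change of 0.37 and an SE of 0.08 (edgeR adjusted p 0.0126). Without cdk8K185 replicate 2 its adjusted p was 0.0521. The blue light receptor cry (FBgn0025680, 3R:19212154-19215442, plus strand) had 3.59, 6.15 and 4.85 CPM in the controls, while the mutant libraries had 3.21, 3.62 and 4.73 CPM. The ranges overlapped, and the log2 fold change was -0.33 with a 95% interval from -0.98 to 0.31 (edgeR adjusted p 0.366). Of the genes whose exons overlap cry, lncRNA:CR46393 had 0 counts in every library and vib shares 9 bp.

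**Figure D2:**
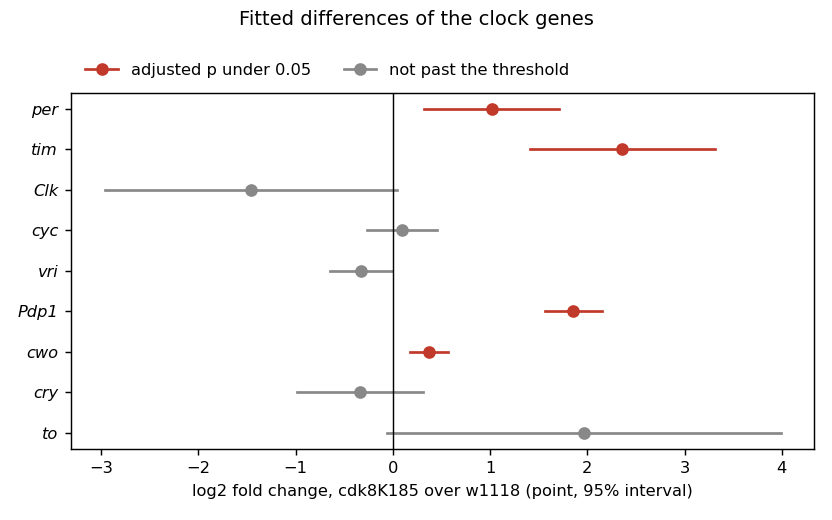
Log2 fold change of cdk8K185 over w1118 for each clock gene (point) with its 95% interval (line), red where the edgeR adjusted p was under 0.05 and grey elsewhere. The intervals of tim, Pdp1, per and cwo lie above 0, that of Clk reaches from -2.96 to 0.05, and that of cyc from -0.26 to 0.45.

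The output gene takeout (to, FBgn0039298, 3R:25240180-25241668, plus strand) encodes a secreted protein that resembles juvenile hormone binding proteins. It was close to the floor, with 0, 5 and 11 counts in the w1118 libraries and 35, 15 and 24 counts in the cdk8K185 libraries. In CPM these were 0, 0.496 and 1.18 against 2.96, 1.47 and 2.06, so that the genotypes did not overlap. With such counts the difference was uncertain (log2 fold change 1.97, 95% interval -0.06 to 3.99, edgeR adjusted p 0.111), although it was called without w1118 replicate 3 (log2 fold change 3.11, edgeR adjusted p 0.0459). The relatives of to, dyw and the genes named Jhbp, were added as a list after the table was seen. Of 15 in the table, 7 were tested, of which Jhbp14 (log2 fold change 0.92) and Jhbp5 (0.88) rose and Jhbp2 (-2.02) fell. The calls are 42.9% of those tested, against 36.9% of all genes. Without cdk8K185 replicate 1 the list had 0 higher and 1 lower call, and with DESeq2 1 of each. The median log2 fold change of these 7 genes was 0.52. Jhbp2 had a mean of 26.1 ± 9.87 CPM in the controls and 6.44 ± 2 CPM in the mutant (SD, n = 3). Jhbp7, which lies 1285 bp from to, had a mean of 43.6 ± 9.33 CPM in the controls and 55.4 ± 1.77 CPM in the mutant (edgeR adjusted p 0.119). These genes are related in sequence, and Jhbp5 shares exons with Jhbp4, so that reads may have been shared between them.

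Since night-peaking and dawn-peaking clock genes move against each other over the day, their difference within a library was used to compare the pools. Apart from the prior count, which is added before the log and matters at low counts, it does not depend on the scaling of the library. On the log2 CPM scale, tim minus Clk was -1.32, -0.80 and 0.21 in the w1118 libraries and 3.61, 1.74 and 3.43 in the cdk8K185 libraries. The lowest mutant value lay above the highest control value, and the means were 3.56 apart. With prior counts of 0.5 and 5 they were 3.79 and 3.21 apart. The difference tim minus cry, which uses the same tim values, was -1.74, -1.10 and -1.66 in w1118. In cdk8K185 it was 1.77, 0.85 and 0.79. The difference per minus Clk ran from -1.31 to 0.30 in w1118 and from 0.52 to 2.20 in cdk8K185. For Pdp1 minus Clk the ranges were 1.87 to 3.89 in w1118 and 5.15 to 6.33 in cdk8K185, so neither pair overlapped. In contrast, vri minus Clk ran from 4.94 to 6.83 in w1118 and from 6.19 to 7.43 in cdk8K185, and these ranges overlapped. The difference of Pdp1 and vri was nearly constant in cdk8K185, at -1.07 ± 0.03, and was -3.23 ± 0.40 in w1118 (log2 CPM, SD, n = 3). No test was made on these differences, which restate the levels given above and describe the libraries. The part of the hour of collection in them was not tested.

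**Figure D3:**
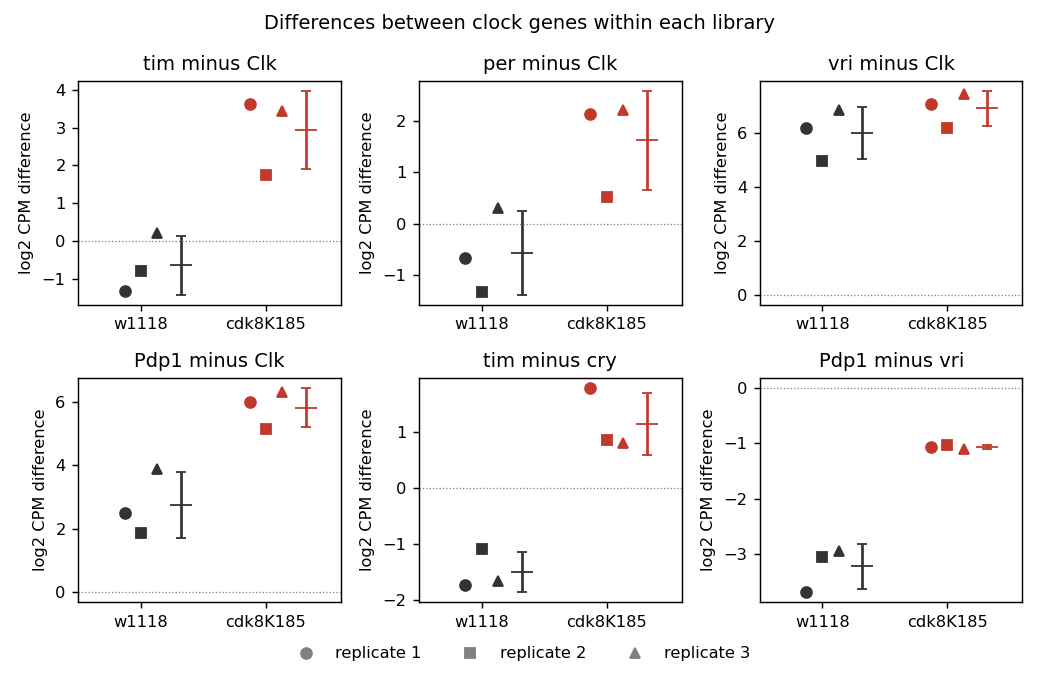
Difference of log2 CPM between clock genes within each library, for genes that peak at opposite times of day in adult heads and for Pdp1 and vri. Symbols are libraries and bars the mean ± SD (n = 3), and the dotted line marks equal levels. For tim minus Clk the w1118 libraries lie between -1.32 and 0.21 and the cdk8K185 libraries between 1.74 and 3.61.

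To describe how alike the pools of a genotype were, the SD of log2 CPM over the 3 libraries was set beside that of tested genes within 0.5 log2 CPM of the same mean. In w1118, the SD was 0.70 for tim and 0.96 for Clk, at the 71.7 and 80.4 percentile of genes of like level, and 0.15 for per, at the 10.9 percentile. In cdk8K185, it was 0.38 for tim at the 90.1 percentile, 0.73 for Clk at the 64.9 percentile and 0.25 for per at the 51.8 percentile. For Pdp1 and vri the percentiles ran from 55.2 to 72.7 in both genotypes, and for cwo they were 15.3 and 25.4. The clock genes were thus within the spread of other genes of their level, apart from to in w1118, whose SD of 1.45 was the highest of 119 such genes. Among the cdk8K185 libraries, tim, per and to were all highest in replicate 1 and lowest in replicate 2, while Clk was highest in replicate 2. In w1118, tim, per, Clk and cry were all highest in replicate 2.

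Both Pdp1 and Clk lie near the mutated locus. The gap to Cdk8 on 3L is 1.97 Mb for Pdp1 and 2.06 Mb for Clk, which are 35855 bp apart, and 9.98 Mb for cyc. The kinase gene nmo (3L:7979046-8054147), named below, lies between Pdp1 and Cdk8. The sequence that flanks cdk8K185 can differ from that of w1118 in this region. The part of this in the values of Pdp1, Clk and nmo was not tested. tim, vri, per, cwo, cry and to lie on other chromosome arms.

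Enzymes set the pace of the clock by modifying PER and TIM. Of 14 kinases, phosphatases and turnover factors tested, 0 rose and 4 fell, and the median log2 fold change was -0.04. This is 28.6% of the list, below the 36.9% of all genes, and with library totals 2 rose and 3 fell. The largest decrease was that of nmo, a kinase that acts on PER, from 76.1 ± 17.2 to 37.2 ± 4.52 CPM (SD, n = 3), a log2 difference of -1.03 ± 0.18 (SE; edgeR adjusted p 0.00454). slmb, the F-box protein that marks PER for degradation, fell from 116 ± 19.2 to 62 ± 2.61 CPM (log2 fold change -0.91). Cul3, a ubiquitin ligase scaffold for TIM, fell by 0.82 and sgg, the GSK-3 kinase of TIM, by 0.44 on the log2 scale. By contrast dco (Doubletime), the main kinase of PER, had a mean of 104 ± 5.14 CPM in the controls and 103 ± 1.04 CPM in the mutant (edgeR adjusted p 0.867). The F-box gene jet, through which light removes TIM, was at 6.27 ± 0.892 and 8.62 ± 0.938 CPM (edgeR adjusted p 0.0692).

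Among 9 transcription and translation cofactors of the clock, 2 rose and 4 fell, which is 66.7% of the list, against 36.9% of all genes called. With library totals 2 rose and 1 fell, as without cdk8K185 replicate 1, and without cdk8K185 replicate 2 there was 1 call in each direction. The largest difference was that of Hr51 (unfulfilled), a nuclear receptor needed in clock neurons and in mushroom body neurons. Hr51 was at 0.851, 0.496 and 0.646 CPM in the control libraries, and the mutant libraries held 13.7, 13.3 and 26.8 CPM. All 3 control libraries were under the cutoff of the filter on low counts (0.938 CPM of the unscaled library), so Hr51 was tested because of its level in the mutant alone (edgeR adjusted p 0.000325, log2 fold change 4.73 with SE 0.41). kay, a Fos-family factor, rose from 157 ± 9.4 to 204 ± 4.57 CPM (log2 fold change 0.38). Those that fell were Fer2, a bHLH factor of the clock neurons that make PDF (log2 fold change -1.29), Eip75B, an ecdysone-induced nuclear receptor (-1.26), and Atx2 (-0.43) and Lsm12a (-0.35), which act with TYF in the translation of PER. Eip75B had a mean of 292 ± 110 CPM in the controls and 122 ± 4.2 CPM in the mutant (SD, n = 3). The exons of Fer2 overlap those of CG5916, and Fer2 passed the filter through the w1118 libraries alone.

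Peptides of clock neurons and their receptors were the list with the highest median, at a log2 fold change of 1.08. Of 9 tested, 5 rose and 0 fell, which is 55.6% of the list, against 36.9% of all genes called. Pdf, the main neuropeptide of the clock, had a mean of 1.22 ± 0.347 CPM in the controls and 3.46 ± 0.619 CPM in the mutant (SD, n = 3), a log2 difference of 1.51 ± 0.34 (SE; edgeR adjusted p 0.0123). Pdf passed the filter through the cdk8K185 libraries alone. CCHa1 (log2 fold change 1.79), Dh31 (1.68) and AstC (1.55) also rose. These peptides are also made by endocrine cells of the gut, so the list is not limited to the clock. The PDF receptor gene Pdfr had a mean of 3.91 ± 0.499 CPM in the controls and 8.25 ± 2.39 CPM in the mutant (log2 fold change 1.08, edgeR adjusted p 0.0131). Lk had 0 counts in every library and was not tested, while NPF, sNPF, ITP and Dh44 were not past the threshold.

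Of the genes for light input, 5 were tested and 1 was called, which is 20%, against 36.9% of all genes. qsm, which acts in light responses of clock neurons, fell from 133 ± 12.3 to 94.7 ± 4.87 CPM (log2 fold change -0.49, edgeR adjusted p 0.00844). qsm was the sole call of the list, which had 0 calls with library totals and without cdk8K185 replicate 3. Rh5 and Rh6, the opsins of the larval eye, were at 1.96 ± 0.582 and 5.54 ± 1.65 CPM in the controls and at 1.73 ± 0.332 and 4.32 ± 0.478 CPM in the mutant (SD, n = 3), and neither was called. Other transcripts that cycle in adult heads moved both ways. Of 4 tested, 2 rose and 1 fell, which is 75%, against 36.9% of all genes. Achl (Achilles) had 234, 37 and 171 CPM in the controls, while the mutant libraries had 1.27, 1.76 and 2.75 CPM, so that it was uneven among the controls and low in every mutant library (edgeR adjusted p 0.00214, log2 fold change -6.25 with SE 0.83). Slob, which binds the Slowpoke potassium channel, rose by a log2 fold change of 1.01, and Gclc, which encodes the catalytic subunit of glutathione synthesis, by 0.70.

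**Figure D4:**
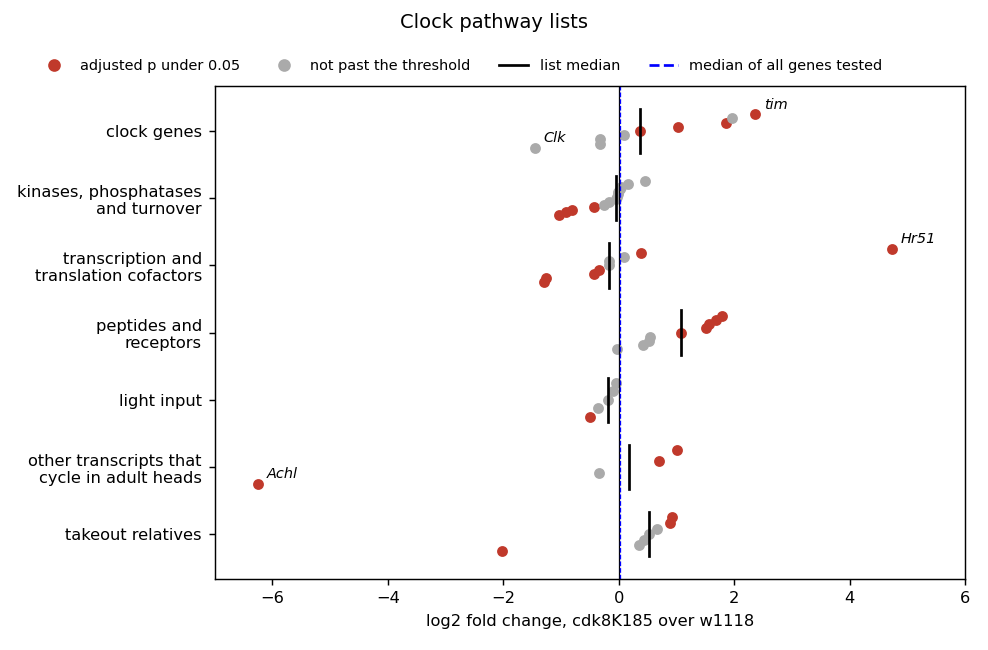
Log2 fold change of cdk8K185 over w1118 for the tested genes of each clock pathway list, red where the edgeR adjusted p was under 0.05. Black bars are list medians and the dashed line is the median of all genes tested, 0.02. In the list of peptides and receptors 5 of 9 genes rose, 55.6% of the list, against 36.9% of all genes called. Hr51 (4.73) and Achl (-6.25) lie farthest from 0.

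Markers of tissues that express clock genes were set beside these values. Of all genes tested, 36.9% were called. The share was 25% for neuron, 50% for glia and 75% for Malpighian tubule markers. It was 33.3% for fat body, 100% for prothoracic gland and 0% for muscle markers. Of 8 neuron markers, 0 rose and 2 fell, with a summed level of 395 to 449 CPM in w1118 and 250 to 266 CPM in cdk8K185. The genes that fell were Syt1 (log2 fold change -1.08) and fne (-0.70). Most of the w1118 sum came from Syt1, at 262 ± 4.34 CPM, against 124 ± 5.41 CPM in cdk8K185 (SD, n = 3). The lower sum therefore does not describe the other neuron markers. The pan-neuronal elav had a mean of 32.7 ± 4.31 CPM in the controls and 32.7 ± 3.24 CPM in the mutant (SD, n = 3). Of 6 glia markers moody rose and wrapper and Gs2 fell. Their summed level was 749 to 1093 CPM in w1118 and 346 to 414 CPM in cdk8K185, most of it from Gs2, and without Gs2 it was 76.8 to 96.7 against 97.6 to 109.7 CPM, so that the direction turned. The glial gene repo did not pass the threshold (edgeR adjusted p 0.738). The Malpighian tubule markers were mixed, with 3 of 8 higher and 3 lower (291 to 351 against 360 to 474 CPM). Uro, the urate oxidase of the tubules, rose from 12.5 ± 7.65 to 232 ± 64.1 CPM (log2 fold change 4.21), while Prip, a water channel, fell by 1.73. Much of the summed level in cdk8K185 came from Uro, so the higher sum does not describe the other tubule markers. All 6 prothoracic gland genes were lower (148 to 156 against 46.7 to 53.2 CPM). Of these, dib passed the filter on low counts through the w1118 libraries alone. Of 6 fat body genes 0 rose and 2 fell, Fbp1 and Lsp1gamma. Their summed level was 67859 to 73800 against 19983 to 42670 CPM, and without Fbp1 the ranges overlapped (25510 to 39767 against 16153 to 40128 CPM). Of 6 muscle genes 0 were called (4154 to 9218 against 4473 to 8868 CPM). No marker of these lists was at 0 in any library. Their part in the clock gene values was not tested.

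As a description, the tested genes of average log2 CPM of at least 3 whose log2 CPM followed tim most closely over the 6 libraries were CG15673 (Pearson r 0.998), CG3803 (0.997) and FBgn0259680 (0.996), and 411 of 7725 such genes had r over 0.95. For Clk they were the CPEB-type translation regulators orb (0.987) and orb2 (0.981) and the chromosome-binding protein Pof (0.986), with 14 genes over 0.95. The 3 genes like tim rose in cdk8K185 (edgeR adjusted p 0.00195 to 0.0322), and the 3 like Clk did not pass the threshold (0.051 to 0.0965). They were picked on the same 6 libraries, so these outcomes follow from the choice and add nothing to those of tim and Clk.

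Library totals ran from 9208564 to 11724703 counts, and the most abundant gene held 5.06% to 7.74% of them. The Cdk8 transcript was lower in all 3 mutant libraries (6.14 ± 1.28 against 9.49 ± 0.643 CPM, SD, n = 3, edgeR adjusted p 0.0344), as was I-2 (5.38 ± 0.212 against 31.5 ± 3.83 CPM). The paper describes a null allele that removes Cdk8 and part of I-2, and it reports reduced Cdk8 expression in this mutant. Here the mean in the mutant was 64.7% of the control for Cdk8 and 17.1% for I-2. Counts per gene do not show which part of a gene the reads came from and do not measure its function.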

How the data were processed

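The authors deposited 1 table of raw counts per gene, with whole numbers, FlyBase identifiers and 1 column for each of 6 libraries. The submitters' processing notes name STAR, featureCounts, DESeq2 and the build dm6. Versions, annotation release and strand setting are not given in the sources used here, so antisense partners cannot be told apart. Symbols, positions and exon lengths came from the Ensembl annotation of BDGP6.54, which matched 17477 of 17562 identifiers. Counts were tested with edgeR 4.0.16 in R 4.3.3, with filterByExpr (minimum count 10, minimum total 15), TMM scaling, genotype as the sole term, glmQLFit and glmQLFTest (robust), two-sided, and Benjamini-Hochberg adjustment over all 10632 genes. The threshold was 0.05. SE is the absolute log2 fold change over the square root of F. CPM used TMM-scaled library sizes, and log2 CPM a prior count of 2. Alternatives used DESeq2 1.42.0 and limma 3.58.1. The fit was tested on simulated data.

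The clock genes and the lists were chosen with earlier results of these data known. Named genes are the 9 clock genes, up to 4 called genes of each clock list per direction, up to 2 of each marker list, and the 3 genes most like tim and Clk. Pdfr, jet, dco, Rh5, Rh6, elav, moody, repo, wrapper, dyw, Jhbp7, CG32371 and the peptide genes not called were named after their values were seen. Libraries of a genotype differed by far more than sampling noise (chi-square per degree of freedom 19 to 47.3). Nothing in the labels says that pools came from separate cultures, so p-values measure the spread between these pools. No sequence is printed. Figures were made with Python 3.11.15 and matplotlib 3.10.9.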

Additional observations from a re-analysis of the deposited data

How the results depend on the processing

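The calls of tim and Pdp1 held in every planned refit, with log2 fold changes from 2.06 to 2.91 and from 1.76 to 1.95 when single libraries were left out. The log2 fold change then ran from 0.88 to 1.16 for per, from 0.34 to 0.43 for cwo and from 1.36 to 3.11 for to, 3 to 4 clock genes were called, and 2746 to 3844 genes in all. With DESeq2, per was 0.98 (not called) and vri -0.37 (called). Library totals in place of TMM moved the median log2 fold change of all genes by 0.22. Whether the numbers of the pools pair them is not known. The deviations of same-numbered pools had correlations of -0.19, 0.51 and 0.56. For w1118 replicates 2 and 3 the best match was the mutant pool of the same number. For w1118 replicate 1 it was cdk8K185 replicate 2. With a replicate block Clk was called (log2 fold change -1.43, adjusted p 0.0182), and 5 clock genes and 3988 genes in all were called. Clk and to could not be fitted with at least 10 counts required in every library.

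Terms for marker levels were chosen after seeing the data. With the muscle marker level, per was 1.05 (not called), and vri (-0.38) and to (2.75) were called. Sgs3, a salivary glue gene, did not overlap between genotypes (13.4 to 13.9 against 9.03 to 9.67 log2 CPM), so its term cannot be told apart from genotype. With it 207 genes and 0 clock genes were called, and the log2 fold changes were 1.20 for per, 4.13 for tim, 1.92 for Pdp1 and 0.71 for cwo. The values for Clk (11.59), vri (0.21), cyc (-0.78) and to (-1.16) had the opposite sign to the main fit, and cry was at -1.55. Low counts limit per, tim, Clk and to. The list of cofactors had 3 calls with library totals and without cdk8K185 replicate 1, and 2 without cdk8K185 replicate 2, against 6. That of light input had 0 with library totals and without cdk8K185 replicate 3, against 1. The relatives of to had 1 without cdk8K185 replicate 1, against 3. With the Sgs3 term each list had 0 calls. The marker sums without Gs2 and Fbp1 were also chosen after seeing the data.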
